A study of Mus musculus with 8 samples.

Results

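Interferon-stimulated genes are the genes that a cell switches on when an interferon binds its receptor. The set described here holds 40 such genes of the 41214 genes counted in mouse bone marrow, and all 40 were found by symbol. They were chosen by name from the well known members of this response, with earlier results of these data known. Type I interferons (the interferon-alpha family and interferon-beta) bind IFNAR1 and IFNAR2, and JAK1 and TYK2 then activate a complex that holds STAT2 and IRF9 and binds a DNA element called the interferon-stimulated response element (ISRE). Interferon-gamma acts through IFNGR1 and IFNGR2, and its targets often carry the gamma-activated sequence (GAS). The induced proteins degrade, bind or sense viral RNA, block virus entry and budding, load peptides for antigen presentation, and damp the signal again.

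RNA-seq counts of total bone marrow from 8 C57Bl6 mice were compared, 2 mice in each of 4 groups. Gfi1 encodes a transcriptional repressor that is needed for neutrophil development. The young KD mice (39 and 42 days old) and the sick KD mice (187 and 78 days old) carried the Gfi1 knockdown, in which a human GFI1 cDNA replaces the mouse gene and a neo cassette in antisense orientation keeps its expression low. The young KO mice (48 and 44 days old) and the old KO mice (158 and 101 days old) carried a Gfi1 knockout. The labels give AML for both sick KD mice and no AML for the other 6, whereas the study describes the disease of KD mice as a myeloproliferative neoplasm (MPN). All 8 mice therefore had a defective Gfi1 locus, no wild-type mouse was included, and in sick KD mice the genotype, the disease and the age differ together from young KO.

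Libraries held 26642067 to 42679114 counts on genes, and the share of uniquely mapped reads outside annotated genes was 42% and 38.8% in the sick KD libraries against 26.9% to 33.8% in the other 6. The mouse Gfi1 gene had 6.17 and 7.03 CPM (counts scaled to library depth, with TMM factors over the 8 libraries) in young KD, 14 and 14.4 in young KO, 5.49 and 7.15 in sick KD and 13.3 and 29.7 in old KO. Reads on the mouse gene were thus more frequent in the libraries labelled KO (log2 1.77 ± 0.38, adjusted p = 0.0234 for old KO against sick KD, and 1.10 ± 0.13, adjusted p = 0.324 for young KO against young KD). The KD allele expresses a human cDNA, and counts per gene do not show which part of Gfi1 the reads of the KO libraries cover, so these counts check the label of neither genotype. KD and KO below are the groups as labelled. Marrow markers were present in every library, with Mpo, the myeloperoxidase of granulocyte precursors, at 2199 CPM or more. Camp, a late neutrophil granule gene, was scarce, at 9.53 CPM or less. It does not stand for all genes of that kind. Total marrow is a mixture, and in such bulk RNA fewer cells of a type and less RNA of a gene per cell cannot be told apart.

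The promoters of the genes that differed most and least between old KO and sick KD are shown first, because the ISRE is the DNA element these genes are known for. RefSeq (GRCm38.p6) gave promoter windows of 300 bases, from 250 before to 50 after the gene start, for 30 of the 40 genes. Of the members with 1 window (Iigp1 is not shown), those below are the 4 with the largest rise in old KO and the 2 with the smallest difference, Gbp7 and Ifitm3. Capitals mark the ISRE core, searched as a pair of GAAA half-sites 2 bases apart, or of TTTC half-sites for the other strand.
Oasl2 (chr5:114896684-114896983, plus strand): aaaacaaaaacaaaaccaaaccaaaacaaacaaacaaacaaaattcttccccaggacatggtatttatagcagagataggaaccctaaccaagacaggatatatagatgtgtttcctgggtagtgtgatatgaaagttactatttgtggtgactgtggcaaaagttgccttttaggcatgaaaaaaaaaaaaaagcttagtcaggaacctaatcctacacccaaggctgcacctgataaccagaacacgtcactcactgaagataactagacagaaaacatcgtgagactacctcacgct
Rsad2 (chr12:26456403-26456702, minus strand): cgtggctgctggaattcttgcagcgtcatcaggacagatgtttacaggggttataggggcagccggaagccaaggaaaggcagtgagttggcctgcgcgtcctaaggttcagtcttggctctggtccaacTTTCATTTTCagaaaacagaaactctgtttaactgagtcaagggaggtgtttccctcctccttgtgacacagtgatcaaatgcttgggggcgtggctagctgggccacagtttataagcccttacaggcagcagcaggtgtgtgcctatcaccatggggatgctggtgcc
Ifit3 (chr19:34583279-34583578, plus strand): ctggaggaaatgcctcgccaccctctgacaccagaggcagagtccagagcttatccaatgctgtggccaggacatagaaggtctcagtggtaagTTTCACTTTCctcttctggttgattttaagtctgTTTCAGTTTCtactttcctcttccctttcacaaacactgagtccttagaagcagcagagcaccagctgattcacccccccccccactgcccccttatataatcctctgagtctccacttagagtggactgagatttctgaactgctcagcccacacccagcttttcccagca
Cxcl10 (chr5:92348840-92349139, minus strand): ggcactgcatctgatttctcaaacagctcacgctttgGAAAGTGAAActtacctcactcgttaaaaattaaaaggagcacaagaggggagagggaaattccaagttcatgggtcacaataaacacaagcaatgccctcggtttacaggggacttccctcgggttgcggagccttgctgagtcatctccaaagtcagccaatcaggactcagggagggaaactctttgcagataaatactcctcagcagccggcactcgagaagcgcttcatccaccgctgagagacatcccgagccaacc
Gbp7 (chr3:142530086-142530385, plus strand): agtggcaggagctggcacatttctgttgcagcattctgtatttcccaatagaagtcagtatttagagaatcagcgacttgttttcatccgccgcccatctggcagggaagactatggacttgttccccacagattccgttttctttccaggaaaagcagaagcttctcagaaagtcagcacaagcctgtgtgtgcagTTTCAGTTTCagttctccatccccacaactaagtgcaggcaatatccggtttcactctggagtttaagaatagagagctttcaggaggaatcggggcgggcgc
Ifitm3 (chr7:141010695-141010994, minus strand): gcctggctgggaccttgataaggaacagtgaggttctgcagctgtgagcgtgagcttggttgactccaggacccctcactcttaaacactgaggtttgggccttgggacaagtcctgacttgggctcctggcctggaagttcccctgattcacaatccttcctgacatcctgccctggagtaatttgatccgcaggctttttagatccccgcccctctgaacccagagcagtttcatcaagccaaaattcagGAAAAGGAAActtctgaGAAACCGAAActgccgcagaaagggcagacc

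The core occurred once in the windows of Rsad2, Cxcl10 and Gbp7, and Ifit3 and Ifitm3 held it at 2 places. The window of Oasl2, the gene with the largest difference, held none. Over all genes with a window, 18 of the 30 members (60%) held the core, compared with 3.44% of all 32851 windows. The share was 64.7% among the 17 members that were higher in old KO than in sick KD and 58.3% among the 12 that did not pass the test. The GAS letters, TTC and GAA 3 bases apart, which read the same on both strands, occurred in 7 of the 30 members (23.3%) and in 8.3% of all windows. Matches to these letters describe the windows and were not tested against binding.

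The members were read out as CPM in each library, and levels between genes were compared per kilobase of exon. The most abundant was Ifitm3, an inhibitor of virus entry, at 421 CPM per kb (mean of 8 libraries), followed by Ifi27l2a at 103 and the immunoproteasome subunit Psmb8 at 66.2. The least abundant was Ifi44, at 0.067 CPM per kb, with 1 to 36 counts in a library. Between those ends the most abundant of each role were Ifi47 among the GTPases at 22.8 CPM per kb, Irf9 among the signalling genes at 18.8, Dhx58 among the sensors at 10 (Zbp1, next in that role, had 6.49), Oas1a in the OAS family at 8.69, Ifit2 among the IFIT genes at 5.99, and the chemokine gene Cxcl10 at 1.26. The set thus spanned a wide range of levels in marrow for which the labels name no interferon or virus.

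Most of the 40 genes had their lowest levels in sick KD. Summed over the 40 genes, the level was 2008 and 2176 CPM in young KD, 2201 and 2255 in young KO, 1427 and 1663 in sick KD, and 2076 and 2553 in old KO. The median gene lay 0.88 and 0.70 log2 units below the young KD mean in the 2 sick KD libraries (log2 of CPM + 1), 0.03 below it and 0.28 above it in the old KO libraries, and 0.10 and 0.08 above it in young KO. Over all genes tested this median stayed within 0.01 of 0 in every library. Both sick KD libraries were below all other 6 libraries for 30 of the 40 genes (75%), compared with 23.7% of all genes tested, and no member had both sick KD libraries above the other 6.

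**Figure D1:**
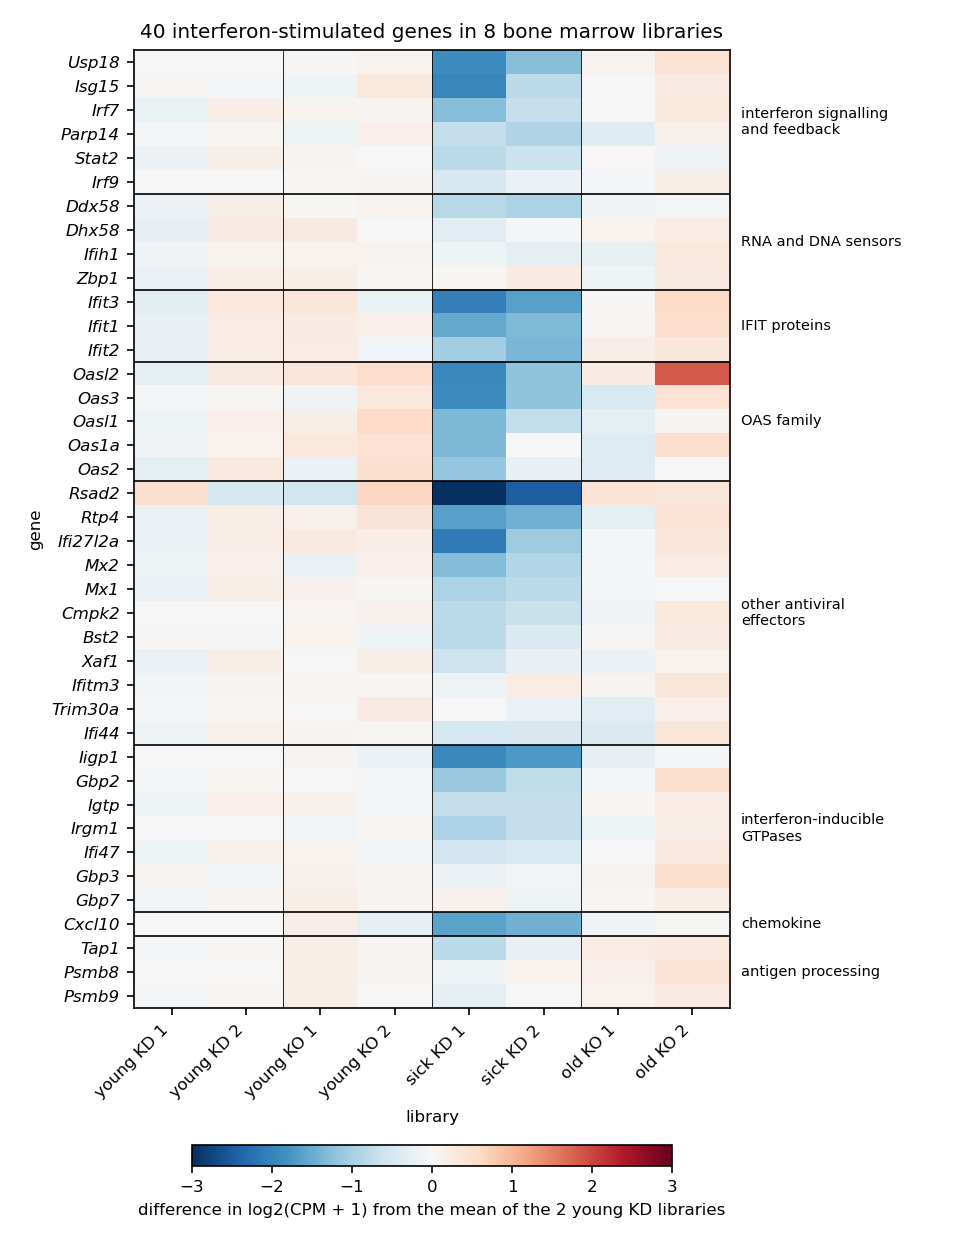
Difference in log2(CPM + 1) of each of the 40 genes (rows, grouped by role) from the mean of the 2 young KD libraries, in each of the 8 libraries (columns); blue is lower and red is higher. The sick KD columns are the blue ones for 30 of the 40 genes, and Oasl2 in old KO 2 is the deepest red.

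The comparison of young KO with young KD asks whether the genotypes differ before disease. No member passed the test (edgeR quasi-likelihood, Benjamini-Hochberg over all 14839 genes, threshold 0.05), and 0.0404% of all genes did. One of the 40 had an unadjusted p under 0.05, Oas1a, and DESeq2 also called 0. The log2 fold changes ran from -0.05 to 0.49 with a median of 0.09, and the median of all genes was -0.01. The value was positive for 34 of the 40 members and for 7073 of the 14839 genes tested. Both young KO libraries lay above both young KD libraries for 10 of the 40 (25%), compared with 14.9% of all genes tested. The median member lay 0.11 log2 units below the young KD mean in young KD 1 and 0.11 above it in young KD 2. In young KO it lay 0.10 and 0.08 above that mean, so neither young KO library exceeded young KD 2. All 5 OAS genes, whose products make the second messenger that activates RNase L or resemble such enzymes, had a positive value, the largest being 0.49 ± 0.24 (SE) for Oasl2. With 2 mice a group, a p that misses the threshold does not show that the young groups were alike.

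The comparison of old KO with sick KD sets mice of the 2 genotypes side by side after KD mice have fallen ill. Of the 40 members 39 had enough counts to be tested, 24 were higher in old KO and 0 were lower, where 9.93% of all 14470 genes tested were higher. The median log2 fold change was 0.86 (range -0.06 to 3.49), against -0.005 for all genes tested. Both old KO libraries lay above both sick KD libraries for 32 of the 39 genes, compared with 32.5% of all genes tested. No member had both old KO libraries below. The library sick KD 1 carried more of this than sick KD 2, being the lower of the pair for 34 of the 40 genes, and old KO 2 exceeded old KO 1 for 38 of the 40. Without sick KD 1 the count was 15 (and that of all genes 674 in place of 1437), without sick KD 2 it was 29, and all 24 genes kept their direction in both cases. The 9 calls lost without sick KD 1 were Bst2, Cmpk2, Ifi47, Irgm1, Mx2, Oas3, Oasl2, Parp14 and Tap1, and without old KO 2 the calls of Bst2, Ifi47, Parp14 and Tap1 were lost.

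Of the 6 signalling and feedback genes 4 passed the test. Usp18, the protease that removes ISG15 and blocks IFNAR2, had 8.99 and 11.6 CPM in old KO and 1.45 and 2.81 in sick KD, against 8.18 and 8.39 in young KD and 8.45 and 9.02 in young KO. Its old KO and sick KD libraries did not overlap, and it was 4.81-fold higher in old KO than in sick KD (log2 2.27 ± 0.34, adjusted p = 0.0093). Irf7, the factor that amplifies interferon-alpha transcription, had 46.0 and 56.8 CPM in old KO, 18.2 and 27.7 in sick KD, 39.1 and 52.6 in young KD, and 48.5 and 48.3 in young KO. The difference was 1.16 ± 0.21 on the log2 scale (adjusted p = 0.0154), and both sick KD libraries were below all others. Stat2, which acts together with IRF9, had 53.0 and 49.1 CPM in old KO, 29.8 and 33.5 in sick KD, 46.6 and 59.5 in young KD, and 55.5 and 53.0 in young KO (log2 0.69 ± 0.12, adjusted p = 0.014). Parp14, an ADP-ribosyltransferase, had 136 and 192 CPM in old KO, 106 and 93.8 in sick KD, 167 and 183 in young KD, and 159.6 and 195 in young KO (log2 0.72 ± 0.18, adjusted p = 0.036). Parp14 lost its call without sick KD 1, without sick KD 2 and without old KO 2. Isg15, the ubiquitin-like modifier that gives the class its name, had 5.71 and 6.92 CPM in old KO, but its sick KD libraries stood apart at 0.727 and 2.85. Its log2 difference of 1.81 ± 0.54 did not pass (adjusted p = 0.0597). Irf9, the DNA-binding partner of STAT2 and the most abundant gene of this role, had 101 and 117 CPM in old KO, 74.2 and 92.6 in sick KD, 103 and 106 in young KD, and 107 and 110.3 in young KO. Its difference of 0.39 ± 0.15 did not pass either (adjusted p = 0.111).

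The 4 cytosolic sensors were split. Ddx58, which encodes the RNA sensor RIG-I, had 37.2 and 38.5 CPM in old KO, 22.1 and 20.2 in sick KD, 35.3 and 45.2 in young KD, and 40.7 and 42.8 in young KO. It was 1.79-fold higher in old KO than in sick KD (log2 0.84 ± 0.13, adjusted p = 0.00876). Dhx58, which encodes the RIG-I relative LGP2, had 34.4 and 37.2 CPM in old KO, 24.8 and 30.2 in sick KD, 26.4 and 38.1 in young KD, and 38.4 and 32.2 in young KO, and did not pass (log2 0.39 ± 0.14, adjusted p = 0.103). Its sick KD libraries overlapped those of young KD. Ifih1 (MDA5, the sensor of long double-stranded RNA) had a log2 difference of 0.29 ± 0.19, and Zbp1, a sensor of Z-form nucleic acid, had -0.06 ± 0.18.

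All 3 IFIT genes, whose products bind foreign RNA and the translation machinery, passed the test. Ifit1 had 6.84 and 9.98 CPM in old KO and 1.66 and 2.06 in sick KD, with 5.58 and 7.87 in young KD and 8.02 and 7.52 in young KO (log2 2.18 ± 0.29, adjusted p = 0.0064). Ifit2 had 29.2 and 32.5 CPM in old KO, 11.9 and 9.21 in sick KD, 21.7 and 29.9 in young KD, and 29.9 and 24.0 in young KO (log2 1.55 ± 0.18, adjusted p = 0.005). Ifit3 had 6.17 and 9.42 CPM in old KO, 0.686 and 1.28 in sick KD, 4.66 and 7.75 in young KD, and 8.09 and 5.09 in young KO (log2 2.98 ± 0.38, adjusted p = 0.00592). For each of the 3 both sick KD libraries were below every other library. Reads of Ifit3 and its near-identical neighbour Ifit3b may be shared, so the value of each is uncertain.

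Of the 5 OAS genes Oasl2 and Oas3 passed. Oasl2 had 6.84 and 22.8 CPM in old KO, 0.727 and 1.88 in sick KD, 4.46 and 7 in young KD, and 7.54 and 8.56 in young KO. Its log2 difference of 3.49 ± 0.66 (adjusted p = 0.0169) was the largest of the 39 members, and the library old KO 2 alone was far above all others. Oas3, the long 2'-5'-oligoadenylate synthetase, had 24.3 and 45.6 CPM in old KO, 8.24 and 13.9 in sick KD, 32.3 and 34.9 in young KD, and 31.3 and 42.3 in young KO (log2 1.66 ± 0.35, adjusted p = 0.023). Both calls were lost without sick KD 1. Oas1a had 12 and 23.1 CPM in old KO, 5.65 and 16.2 in sick KD, 14.7 and 17.5 in young KD, and 20.1 and 21.8 in young KO, so that its old KO and sick KD libraries overlapped (log2 0.68 ± 0.49, adjusted p = 0.363). Oasl1 had a log2 difference of 1.10 ± 0.33 (adjusted p = 0.0594), and Oas2 had 0.50 ± 0.36 with overlapping libraries. Oas1a has close paralogs beside it, so its count may be incomplete. The OAS genes and Cxcl10 lie on chromosome 5 with Gfi1, at 7.17 to 15.4 Mb from it.

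Of the 11 other antiviral genes 10 were tested and 7 passed. Rsad2, which encodes viperin, the enzyme that makes a chain-terminating nucleotide, had 77.5 and 74.0 CPM in old KO, 6.22 and 9.78 in sick KD, 82.3 and 41.4 in young KD, and 39.7 and 90.9 in young KO. It was 9.45-fold higher in old KO than in sick KD (log2 3.24 ± 0.21, adjusted p = 0.00265), and although its young libraries were far apart the lowest of them was still above both sick KD libraries. Cmpk2, its neighbour on chromosome 12 and a mitochondrial nucleotide kinase, had 66.2 and 87.7 CPM in old KO, 40.6 and 44.4 in sick KD, 70.5 and 71.1 in young KD, and 74.2 and 77.6 in young KO (log2 0.86 ± 0.16, adjusted p = 0.0149). Rtp4, a receptor transporter protein, had 5.46 and 9.6 CPM in old KO, 1.53 and 1.92 in sick KD, 5.83 and 8.08 in young KD, and 7.66 and 9.23 in young KO (log2 2.13 ± 0.34, adjusted p = 0.0105). The low level in sick KD was thus shared by genes of different abundance. Ifi27l2a, a small mitochondrial protein gene, had 49.9 and 66.2 CPM in old KO, 11.2 and 24.6 in sick KD, 45.1 and 60.4 in young KD, and 64.2 and 60.5 in young KO (log2 1.70 ± 0.34, adjusted p = 0.0197). The dynamin-like GTPase gene Mx1 had 33.3 and 34.1 CPM in old KO, 17.0 and 19.3 in sick KD, 30.0 and 38.5 in young KD, and 37.3 and 35.1 in young KO (log2 0.89 ± 0.13, adjusted p = 0.00916). Its relative Mx2 had 6.38 and 7.99 CPM in old KO, 2.14 and 3.17 in sick KD, 5.93 and 7.51 in young KD, and 5.64 and 7.58 in young KO (log2 1.44 ± 0.28, adjusted p = 0.0191). In all these genes sick KD was the group that stood apart. Bst2, which encodes tetherin, had 37.2 and 43.6 CPM in old KO, 20.2 and 26.6 in sick KD, 37.4 and 35.2 in young KD, and 38.9 and 33 in young KO (log2 0.79 ± 0.17, adjusted p = 0.0239).

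The most abundant member did not take part. Ifitm3 had 283 and 347 CPM in old KO, 240.3 and 314 in sick KD, 254 and 283 in young KD, and 281 and 278 in young KO, and its log2 difference between old KO and sick KD was 0.19 ± 0.18 (adjusted p = 0.49). The ubiquitin ligase gene Trim30a had 0.04 ± 0.18 and the XIAP-associated factor gene Xaf1 had 0.42 ± 0.22, and neither passed. Ifi44 was not tested between old KO and sick KD because it was too low, with 3 and 36 counts in old KO and 1 and 2 in sick KD. In young KD it had 14 and 22 counts, so that the ratio of its summed counts in sick KD to those in young KD, corrected for depth, was 0.105 (exact 95% interval 0.0206 to 0.331, which covers counting error only).

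The interferon-inducible GTPases, which attack the vacuoles of intracellular parasites and bacteria, gave 5 calls among 7 genes. Iigp1 (Irga6) had 3.38 and 4.08 CPM in old KO, 0.363 and 0.569 in sick KD, 4.14 and 4.22 in young KD, and 4.48 and 3.59 in young KO. It was 7.92-fold higher in old KO than in sick KD (log2 2.99 ± 0.35, adjusted p = 0.00512), where its sick KD libraries held 9 and 16 counts. Gbp2, a guanylate-binding protein gene, had 47.2 and 67.0 CPM in old KO, 21.8 and 28.1 in sick KD, 45.9 and 50.4 in young KD, and 48.6 and 47.0 in young KO (log2 1.20 ± 0.20, adjusted p = 0.0123). Its relatives Gbp3 and Gbp7 had log2 differences of 0.43 ± 0.15 and 0.13 ± 0.14 and did not pass, so that these 3 neighbours on chromosome 3 gave 1 call. Igtp (Irgm3) had 25.9 and 29.5 CPM in old KO, 14.9 in each sick KD library, 22.4 and 27.7 in young KD, and 27.6 and 24.5 in young KO (log2 0.90 ± 0.14, adjusted p = 0.0106). Irgm1 had 53.1 and 68.0 CPM in old KO, 30.5 and 35.7 in sick KD, 60.0 and 58.3 in young KD, and 55.4 and 61.8 in young KO (log2 0.87 ± 0.16, adjusted p = 0.0145). Ifi47 had 58.4 and 72.4 CPM in old KO, 39.5 and 42.4 in sick KD, 54.0 and 64.5 in young KD, and 63.8 and 55.7 in young KO (log2 0.68 ± 0.14, adjusted p = 0.0209). Exons of Ifi47 and Igtp overlap exons of Olfr56 and Irgm2 on the same strand, by 111 and 162 bases, as those of Irf9 overlap Rnf31 by 123 bases, and reads there cannot be assigned to 1 gene.

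Cxcl10, the chemokine that draws CXCR3-bearing T cells, had 3.28 and 3.75 CPM in old KO, 0.525 and 0.711 in sick KD, 3.67 and 3.68 in young KD, and 4.34 and 2.83 in young KO. It was 5.65-fold higher in old KO than in sick KD (log2 2.50 ± 0.32, adjusted p = 0.00566), with 13 and 20 counts in the sick KD libraries. Of the 3 antigen-processing genes, Tap1, a subunit of the peptide transporter, had 189 and 199.8 CPM in old KO, 93.3 and 138 in sick KD, 158 and 166 in young KD, and 186 and 169.8 in young KO (log2 0.75 ± 0.19, adjusted p = 0.0384). The call for Tap1 was lost without sick KD 1 and without old KO 2. Psmb8 had 231 and 276 CPM in old KO, 189 and 222 in sick KD, 208 and 205 in young KD, and 238 and 219.7 in young KO (log2 0.31 ± 0.15, adjusted p = 0.195). Psmb9, the other immunoproteasome subunit here, also had 0.31 ± 0.14 and did not pass. Tap1 and Psmb9 are transcribed away from each other, and their exons overlap by 212 bases on opposite strands.

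**Figure D2:**
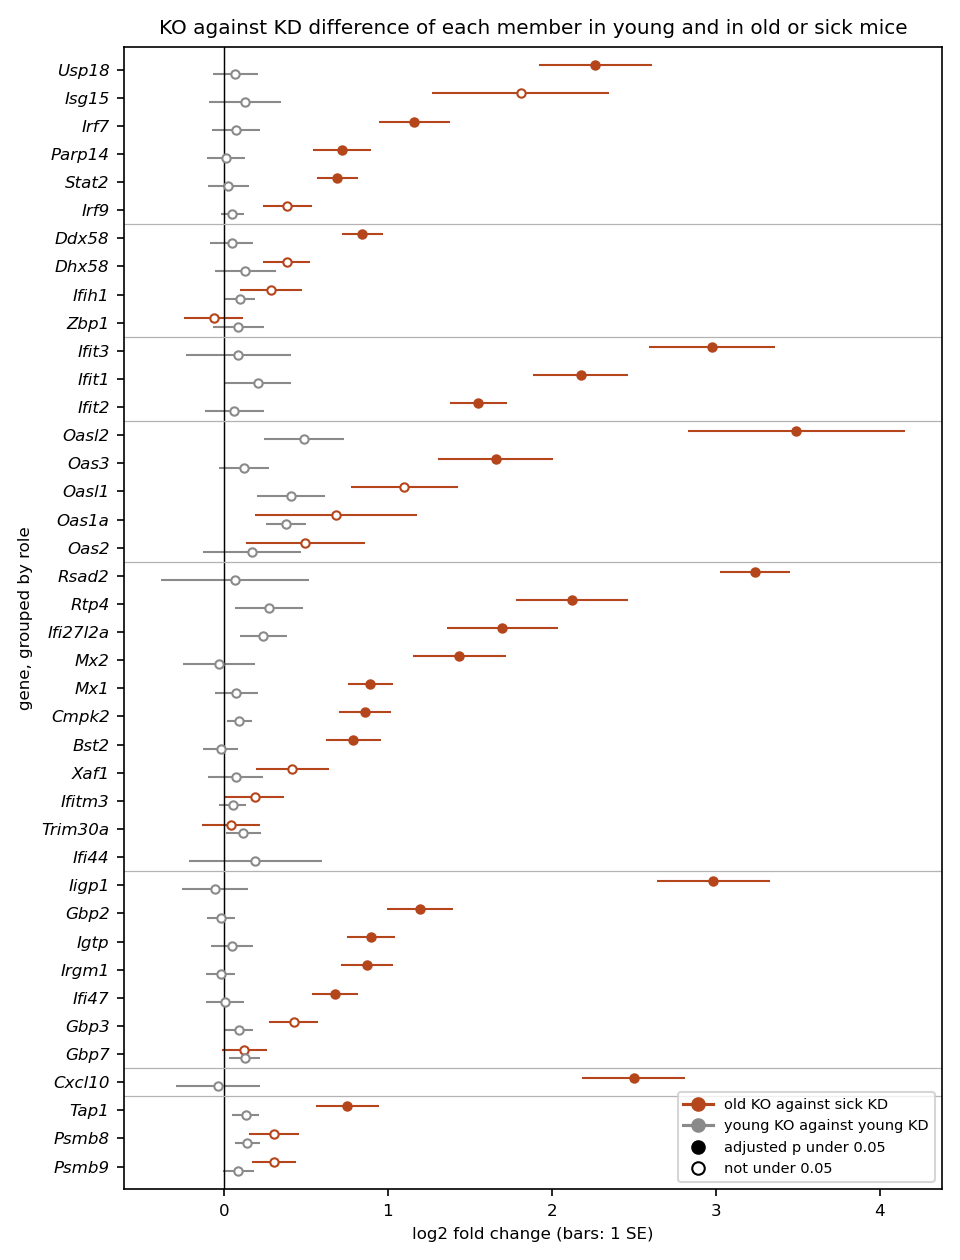
Log2 fold change (x axis, bars 1 SE) of each member for old KO against sick KD (brown) and young KO against young KD (grey), with filled points where the adjusted p was under 0.05. The 24 filled points are all brown and all to the right of 0, while the grey points lie between -0.05 and 0.49.

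**Figure D3:**
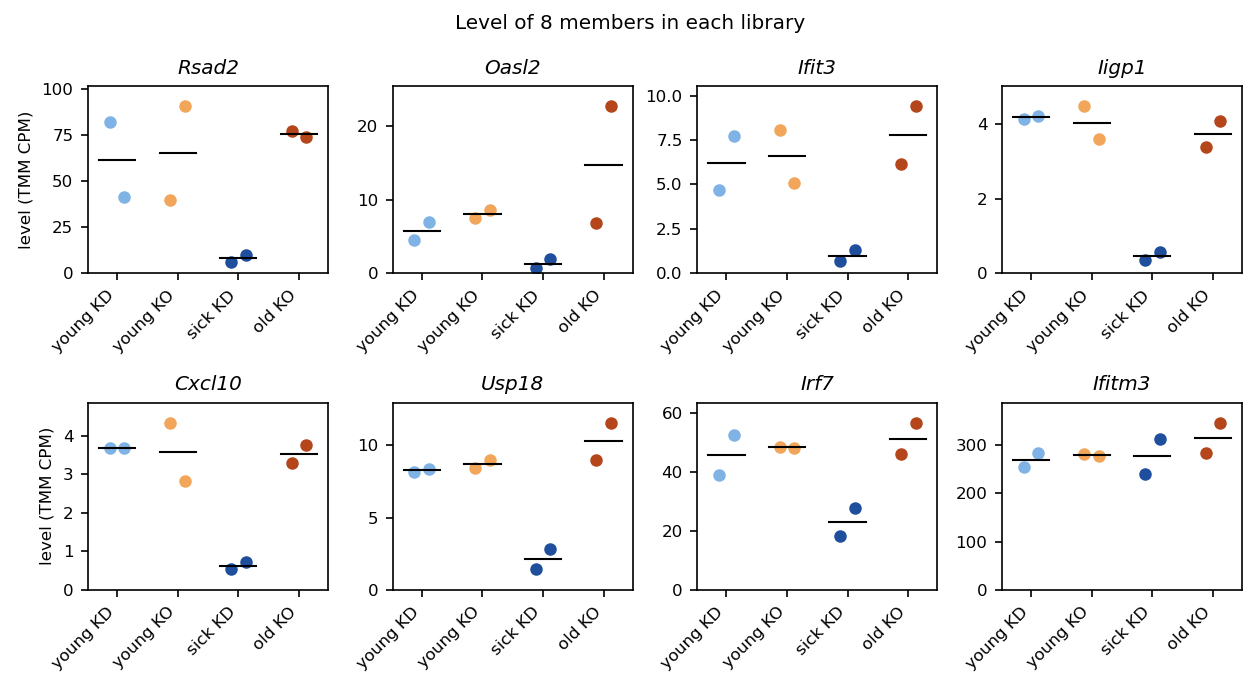
Level in TMM CPM (y axis from 0) of 8 members in each library (points), with the mean of each group of 2 (line). The 7 members from Rsad2 to Irf7 are lowest in both sick KD libraries, and Ifitm3 is at like levels in all 4 groups.

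The comparison of sick KD with young KD sets different mice of the same genotype side by side, with disease and age differing together. It shares the sick KD libraries with the comparison above, so the values are given side by side and are no second line of evidence. Here 25 of the 40 members were lower in sick KD and 0 were higher, where 11.4% of all 14656 genes tested were lower, and the median log2 fold change was -0.83 (range -3.15 to 0.14) against 0.01 for all genes. Only Zbp1 (0.14 ± 0.18) and Ifitm3 (0.04 ± 0.15) had a positive value. Iigp1 fell by 3.15 ± 0.32 on the log2 scale (adjusted p = 0.00489) and differed by 2.99 between old KO and sick KD. Rsad2 fell by 2.95 ± 0.37 (adjusted p = 0.00728), beside 3.24 for old KO against sick KD. Ifit3 fell by 2.65 ± 0.41 (adjusted p = 0.0114) and Cxcl10 fell by 2.56 ± 0.30 (adjusted p = 0.00584). These genes span the IFIT, GTPase, chemokine and antiviral roles. Oasl2 fell by 2.12 ± 0.46 (adjusted p = 0.0263), beside 3.49 for old KO against sick KD, where old KO 2 is the high library. Tap1 had -0.49 ± 0.19 and did not pass (adjusted p = 0.11), whereas Oasl1 (-1.21 ± 0.31, adjusted p = 0.0392) and Ifi44 passed here. Ifi44 entered this test only through its young KD counts, and its call was lost without sick KD 1, sick KD 2 or young KD 2, as that of Oasl1 was without sick KD 1 or young KD 2. Without sick KD 1 the count was 18, and without sick KD 2 it was 29.

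In old KO against young KO, a comparison across age without AML, 0 of 40 members passed the test by edgeR, where 0.929% of all genes did. None had an unadjusted p under 0.05, and DESeq2 also called 0. The median log2 fold change was 0.02 (range -0.52 to 0.89), the upper end being Oasl2 and the lower Oasl1. Without old KO 1, the library with the lower Oasl2 level, 1 member was called, Oasl2.

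An interaction term over all 8 libraries tested whether the KO-to-KD difference of old KO and sick KD was unlike that of the young groups. Disease occurred only in KD, so age and disease cannot be told apart here. The term shares the sick KD libraries with the comparisons above and is no further line of evidence. The difference was larger between old KO and sick KD for 14 of the 40 members and smaller for 0. Of all 15102 genes tested, 4.32% changed in the direction of the 14. The 14 were Usp18, Ddx58, the 3 IFIT genes, Rsad2, Rtp4, Cmpk2, Mx1, Iigp1, Gbp2, Igtp, Irgm1 and Cxcl10. No OAS gene passed, but all 5 had a positive value, as did 37 of the 40 members. Oasl2 had 2.996 ± 0.818 (adjusted p = 0.0627) and Oas3 had 1.53 ± 0.45 (adjusted p = 0.0758). Oasl1, Oas2 and Oas1a had 0.68, 0.32 and 0.30. The 3 IFIT genes had 1.48 to 2.88, which Oasl2 and Oas3 reached and Oasl1, Oas2 and Oas1a did not. A difference between the IFIT and OAS families was not tested. The largest value was 3.16 ± 0.61 on the log2 scale for Rsad2 (adjusted p = 0.0288), and the smallest adjusted p was that of Iigp1 (3.03 ± 0.38, adjusted p = 0.0099). This count depended on single libraries, since leaving out 1 of the 8 gave 2 to 16 calls. It was 3 without sick KD 1, 9 without old KO 1, 4 without old KO 2, 5 without young KD 2, and 2 without young KD 1, young KO 1 or young KO 2. The direction of the 14 held in every case.

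The genes that make and relay interferon were examined as a list of 44, of which 33 were tested between old KO and sick KD. The interferon genes were almost silent. Of the 9 type I interferon genes 6 had 0 counts in all 8 libraries, and Ifnb1, Ifna2 and Ifnk reached at most 2 counts in 1 library. Ifnl2 and Ifnl3 had 0 counts. A count of 0 in these libraries says only that such RNA was not detectable at this depth in whole marrow. Ifng was detected in all 8 libraries, at 0.669 and 0.724 CPM in young KD, 0.341 and 0.426 in young KO, 0.202 and 0.285 in sick KD, and 0.493 and 0.536 in old KO. It fell by 1.5 ± 0.41 in sick KD against young KD (adjusted p = 0.0456) and did not pass between old KO and sick KD (1.07 ± 0.47, adjusted p = 0.154). Ifng had at most 27 counts in a library. It entered these tests only through its young KD or old KO counts, the groups where it was higher, so the fall is uncertain.

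None of the 6 receptor genes passed between old KO and sick KD, and Ifnar1, Ifnar2, Ifngr1 and Ifngr2 had log2 differences of 0.15, 0.31, -0.32 and 0.06. In sick KD against young KD, Ifngr1 was higher (0.52 ± 0.12, adjusted p = 0.0331). The kinase genes Jak1, Jak2 and Tyk2 and the factor gene Stat3 did not pass either. Of the 6 IRF genes on this list 3 passed. Irf1, itself induced by interferon-gamma, had 100.4 and 124 CPM in old KO, 42.4 and 51.2 in sick KD, 111 and 105 in young KD, and 101 and 111 in young KO (log2 1.27 ± 0.15, adjusted p = 0.00532). Irf4, a lymphoid and dendritic cell factor, had 65.4 and 54.6 CPM in old KO, 14.1 and 21.9 in sick KD, 134 and 119.7 in young KD, and 90.6 and 113 in young KO (log2 1.74 ± 0.22, adjusted p = 0.00566). Irf2, which encodes a repressor that competes with IRF1, went the other way, with 29.9 and 31.0 CPM in old KO, 51.1 and 47.2 in sick KD, 29.9 and 34.4 in young KD, and 30.8 and 32.6 in young KO. It fell by 0.68 ± 0.12 in old KO against sick KD (adjusted p = 0.0122). Irf3, Irf5 and Irf8 did not pass.

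Of the feedback and upstream genes 3 more were lower in old KO and 1 was higher. Socs3, a feedback inhibitor of JAK kinases downstream of STAT3, had 33.5 and 27.8 CPM in old KO, 43.5 and 56.6 in sick KD, 22.1 and 27.0 in young KD, and 27.7 and 32.0 in young KO (log2 -0.71 ± 0.17, adjusted p = 0.0314). Tlr7, the endosomal receptor for single-stranded RNA, had 55.1 and 53.0 CPM in old KO, 129 and 97.0 in sick KD, 54.1 and 62.9 in young KD, and 50.8 and 52.3 in young KO (log2 -1.06 ± 0.15, adjusted p = 0.00825). Both were thus highest in sick KD, the group where the interferon-stimulated genes were lowest. Tlr9, the receptor for unmethylated DNA, had 11.0 and 11.3 CPM in old KO, 18.4 and 18.0 in sick KD, 11.9 and 15 in young KD, and 13.8 and 12 in young KO (log2 -0.70 ± 0.16, adjusted p = 0.0268). The feedback inhibitor gene Socs1 did not pass between old KO and sick KD (0.98 ± 0.35, adjusted p = 0.095), and was lower in sick KD than in young KD (-1.57 ± 0.33, adjusted p = 0.0239). The adaptor gene Traf3 had 64.7 and 67.6 CPM in old KO, 48.3 and 50.6 in sick KD, 69.0 and 65.5 in young KD, and 66.3 and 74.3 in young KO (log2 0.42 ± 0.11, adjusted p = 0.0391). In all, 3 of the 33 pathway genes tested were higher and 4 were lower in old KO, shares close to those of all genes, of which 9.93% were higher and 8.22% were lower.

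**Figure D4:**
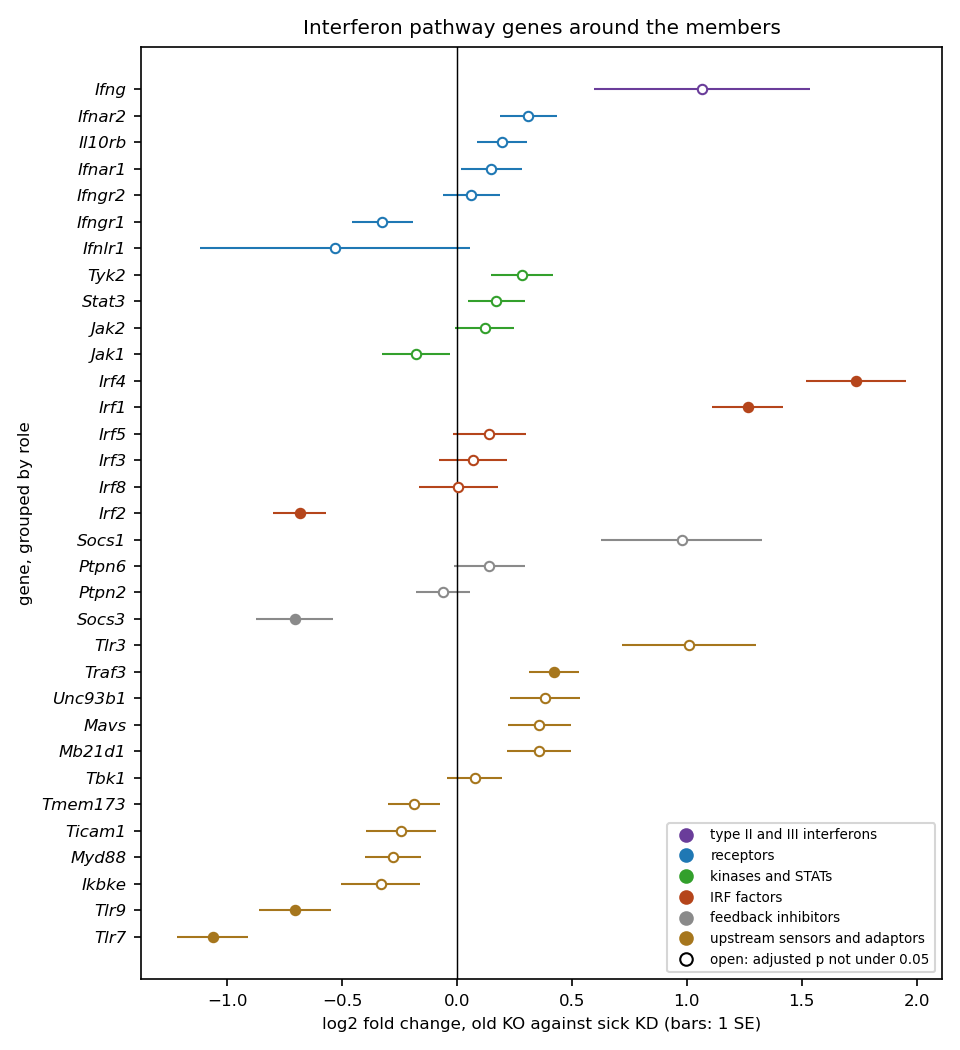
Log2 fold change of old KO against sick KD (x axis, bars 1 SE) for the 33 pathway genes tested, coloured by role, with filled points where the adjusted p was under 0.05. The filled points to the right are Irf4, Irf1 and Traf3, those to the left are Irf2, Socs3, Tlr9 and Tlr7, and no receptor is filled.

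A second list of 60 interferon-induced genes outside the 40 gave 56 tested genes, of which 19 were higher in old KO than in sick KD and 0 were lower, against 9.93% and 8.22% of all genes. This list, too, was chosen with earlier results of these data known and is no second line of evidence. Its median log2 fold change was 0.45, against -0.005 for all genes. The largest was Ifit3b, with 1.27 and 1.79 CPM in old KO, 0.0808 and 0.142 in sick KD (2 and 4 counts), 0.669 and 1.87 in young KD, and 1.68 and 1.04 in young KO (log2 3.72 ± 0.49, adjusted p = 0.00616). Ifit3b entered this test only through its old KO counts, the group where it was higher, so the size of its difference is uncertain. Ifit1bl1, another IFIT relative, had 7.89 and 9.93 CPM in old KO, 2.06 and 1.10 in sick KD, 5.33 and 8.84 in young KD, and 9 and 6.30 in young KO (log2 2.50 ± 0.34, adjusted p = 0.0068). Gbp8 had 3.42 and 2.65 CPM in old KO, 1.01 and 0.320 in sick KD, 1.74 and 1.72 in young KD, and 2.00 and 2.07 in young KO (log2 2.21 ± 0.50, adjusted p = 0.0275). The 3 largest thus came from the IFIT and GBP families that the 40 genes also represent.

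Markers of several marrow cell types moved with the members. The counts called are to be read against the 9.93% of all genes that were higher and the 8.22% that were lower in old KO than in sick KD. The 12 resident macrophage markers summed to 241 to 286 CPM in sick KD, 481 to 588 in old KO, 326 to 388 in young KD and 402 to 437 in young KO, and 10 of the 12 were higher in old KO than in sick KD, the exceptions being Adgre1 and Mertk. All 10 erythroid markers were higher in old KO, with sums of 802 to 1219 CPM in sick KD, 3656 to 5810 in old KO, 1961 to 5053 in young KD and 1817 to 4327 in young KO. The 6 stromal and endothelial markers summed to 23.9 to 24.9 CPM in sick KD and 124 to 127 in old KO, and 3 of the 6 passed. Sick KD was thus lowest in the sums of macrophage, erythroid and stromal markers as in that of the members, and the same held for the B-cell and the T and NK cell markers. Of the 10 plasmacytoid dendritic cell markers 9 were tested, 3 were higher in old KO and 0 were lower. The log2 differences ran from -0.35 to 2.49, with 7 of the 9 positive. The sum went the other way, at 811 to 934 CPM in sick KD and 726 to 750 in old KO. It includes genes that other cells also express. Siglech, from that list, had 3.27 and 1.74 CPM in sick KD, 6.17 and 12.7 in old KO, 18.0 and 14.6 in young KD, and 12 and 13 in young KO. Klk1, a marker on the same list, was at 0 in sick KD 2, and no other marker of the 9 lists was at 0 in any library. B-cell markers summed to 36.3 to 92.1 CPM in sick KD, 124 to 198 in old KO, 749 to 988 in young KD and 616 to 848 in young KO. Young and old KO were thus also apart in these markers. For T and NK cells the sums were 93.3 to 94.2 CPM in sick KD, 104 to 131 in old KO, 109 to 124 in young KD and 117 to 132 in young KO, with 5 of 11 markers higher in old KO. Monocyte markers summed to 9429 to 9977 CPM in sick KD and 8484 to 8532 in old KO, with 1 of 10 higher and 1 lower in old KO (shares near those of all genes), and neutrophil markers to 6174 to 8103 and 3304 to 4286, with 4 of 10 lower. The neutrophil sums do not stand for every marker of that list. Its median (log2 of CPM + 1) was 7.38 and 5.77 in sick KD, 6.44 and 6.11 in young KD, and 4.69 and 4.89 in old KO. The 8 megakaryocyte markers gave no call. The part of these cell types in the differences of the interferon-stimulated genes was not tested, and with genotype, disease and cell make-up moving together in sick KD they cannot be told apart.

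**Figure D5:**
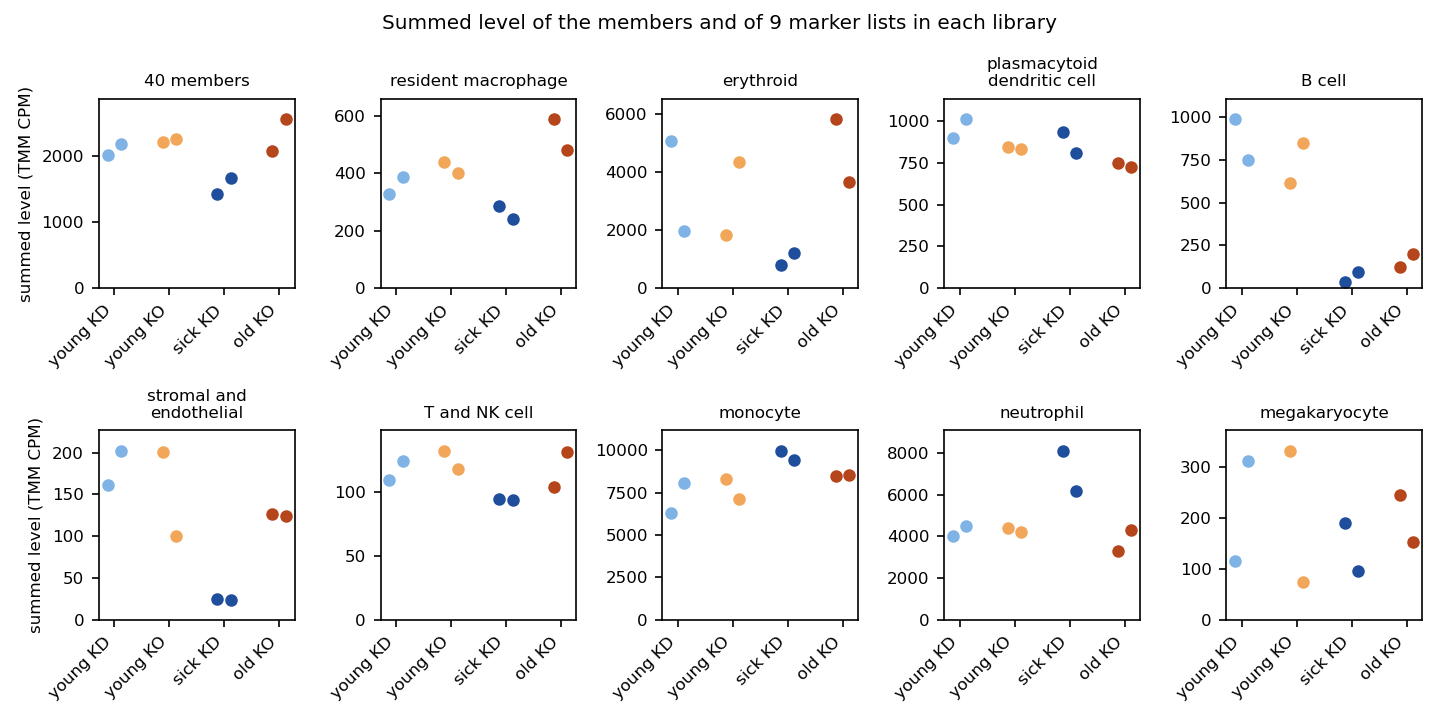
Summed level in TMM CPM (y axes from 0, one scale per panel) of the 40 members and of 9 lists of marker genes in each library. Sums of the members and resident macrophage, erythroid, stromal, B-cell, and T and NK cell markers are lowest in both sick KD libraries. Those of the monocyte and neutrophil markers are highest there.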

How the data were processed

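RNA was prepared by the authors from total bone marrow, made into stranded mRNA libraries, aligned to mm10 with TopHat2 2.0.10 and counted per Ensembl gene with HTSeq; the strand setting is not given in the sources used here. The deposited values are raw counts per gene, without normalization. The tallies of reads that HTSeq gave to no gene were left out of library sizes.

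Symbols came from GENCODE M21. Levels are CPM scaled by TMM over all 8 libraries. Genes were tested with edgeR 4.0.16 (filterByExpr, TMM, quasi-likelihood, Benjamini-Hochberg over all genes, threshold 0.05) on the 4 libraries compared, and the interaction on all 8. SEs were derived from the F statistic, as the size of the log2 change over the root of F. Scripts were tested on simulated data. The labels give mouse numbers but do not state litters, so p-values measure the spread between these mice. The members and lists were chosen with earlier results of these data known. Members were described in every library where called, most abundant of a role or under 10 counts throughout, and other interferon-induced genes as the 3 called with the largest change in each direction. Alternatives were other filters, RLE and upper-quartile scaling, DESeq2 1.42.0, a fit of all 8 libraries, removal of the 50 top genes, of GC and length trends, and of each mouse. Gbp5 and Gbp6, on the list of other interferon-induced genes, were not analysed here. Another gene of the interferon pathway is not reported here.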

Additional observations from a re-analysis of the deposited data

Results flagged for a closer look

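By the interaction test the KO-to-KD difference was larger between old KO and sick KD than between the young groups for 14 members. With disease only in KD, this test cannot tell age from disease. On the log2 scale the interaction was 3.16 for Rsad2, 3.03 for Iigp1, 2.88 for Ifit3, 2.53 for Cxcl10, 2.19 for Usp18, 1.96 for Ifit1, 1.84 for Rtp4, 1.48 for Ifit2 and 1.20 for Gbp2. It was 0.89 for Irgm1, 0.84 for Igtp, 0.81 for Mx1, 0.79 for Ddx58 and 0.76 for Cmpk2. Of the genes outside the 40 that are named in the text, the interaction also passed for Irf1 (1.30), Irf4 (2.04), Ifit3b (3.60) and Ifit1bl1 (2.39), and with the opposite sign for Irf2 (-0.67), Socs3 (-0.99) and Tlr7 (-0.88). Ifit3b had few counts in sick KD and passed the low-count filter only through the other groups. Groups of 2 mice are too small for a test of outlying libraries.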

How the results depend on the processing

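The members called in old KO against sick KD, in sick KD against young KD and in the interaction kept their direction under every alternative in which they were tested. With 2 mice per group, leaving out 1 mouse gave 15 to 29 members called in old KO against sick KD, 18 to 29 in sick KD against young KD, 0 to 1 in old KO against young KO and 2 to 16 in the interaction; the lone mouse left in a group is then assumed to vary like the others. The median log2 fold change of the members ran from -0.0104 to 0.20 in young KO against young KD, from -0.12 to 0.18 in old KO against young KO, and from 0.66 to 0.98 in the interaction, so that the first median turned sign without young KD 1 and the second without old KO 2. Without the low-count filter the interaction called 26 members and old KO against young KO called 1 (Oasl2), and DESeq2 called 24 in the interaction. All 24 members called in old KO against sick KD were also called with RLE and upper-quartile scaling, no filter, the top genes left out, DESeq2, all 8 libraries in 1 fit, and GC and length trends removed, and 23 of them with at least 10 counts required in every library. Removing those trends changed the split of all genes to 1868 higher and 1869 lower, from 1437 and 1189. No paired analysis was possible because the labels number single mice and share no number between groups; 1 and 2 only follow the order of deposit. Low counts limit Ifi44, Iigp1 and Cxcl10 in sick KD.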
